A study of Mus musculus with 12 samples.

Results

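The genes described here are 8 factors of the head organizer and the anterior mesendoderm: *Hesx1*, *Foxa2*, *Otx2*, *Hhex*, *Gsc*, *Chrd*, *Cer1* and *Shisa2*. They were taken by symbol from a table of 23086 gene symbols, and all 8 were present. Of these, 6 had enough counts to be tested, among 12322 genes tested in all, while *Gsc* and *Cer1* had too few. The cells were mouse A2lox.cre embryonic stem cells, which carry, at the *Hprt* locus, a transgene that doxycycline, an antibiotic, turns on. In one line this transgene was wild-type *Lhx1* with a FLAG peptide tag, by which the protein can be detected. In the other it was a mutant FLAG-*Lhx1*; the sources used here do not name the mutation. Both were grown for 2 days as embryoid bodies, aggregates in which stem cells begin to differentiate, and were left without doxycycline or given it for 16 h. This gave 4 groups of 3 libraries: wild-type untreated, wild-type with doxycycline, mutant untreated and mutant with doxycycline. The line and the transgene cannot be told apart in comparisons between lines, since each form was studied in 1 line. The sources used here do not say whether a line is 1 clone, nor at what dose doxycycline was given.

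The head forms where signals that specify the trunk are held back. Anterior mesendoderm, the visceral endoderm beneath the epiblast and later the anterior neural plate provide or require secreted inhibitors of WNT, BMP and NODAL, and LHX1, a LIM homeodomain transcription factor, acts in both mesendoderm and visceral endoderm together with OTX2 and FOXA2. By role the 8 genes are transcription factors (*Hesx1*, *Foxa2*, *Otx2*, *Hhex*, *Gsc*), secreted antagonists (*Chrd* and *Cer1*) and *Shisa2*. The product of *Chrd* binds BMP, and that of *Cer1* binds NODAL and BMP. *Shisa2* encodes a protein that holds back WNT and FGF receptors inside the cell.

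Levels are given in CPM, counts relative to library size, with sizes scaled by TMM, which allows for differences in RNA composition. Totals ran from 4289984 to 4850393 counts per library, so a gene at 1 CPM rests on about 4 or 5 reads in a library. *Lhx1* itself held 14, 8 and 5 counts in the untreated wild-type libraries and 1343, 1218 and 1346 with doxycycline, and 2 counts in each untreated mutant library against 1140, 1218 and 1141 with doxycycline. Induction was thus seen in every treated library of both lines. Counts by gene symbol do not separate *Lhx1* reads of the transgene from those of the cells' own gene. Markers of pluripotent cells were all 12 testable. They summed to 5215 to 5631 CPM in the untreated and 4983 to 5123 CPM in the treated wild-type libraries, without overlap. In the mutant line they summed to 5422 to 5616 CPM untreated and 5339 to 5500 CPM treated. Those of the node and notochord summed to 5.94 to 10.7 CPM, *Shh* was at 0 counts in all 12 libraries, and *Noto* was at 0 in every group but the untreated mutant one. Among the 12, 2 libraries stood apart, 1 by hypoxia genes and 1 by ribosomal RNA. Untreated wild-type library 3 had high hypoxia genes (*Bnip3* at 229 CPM, against 58.5 and 63.3 in the other libraries of its group), and wild-type library 2 with doxycycline held 1.45% of its counts in the ribosomal RNA precursor *Rn45s*, against 0.0884% to 0.265% in the other 11.

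Of the 6 tested genes 3 rose with doxycycline in the wild-type line (*Hesx1*, *Foxa2* and *Shisa2*), none fell and 3 were not called, beside 5.32% of all genes tested that were called and 2.76% called higher. For the same 3 genes the libraries of the treated group all lay above those of the untreated group, as for 9.84% of all genes tested. A call is a Benjamini-Hochberg adjusted p under 0.05 in edgeR's quasi-likelihood test over all genes. Of the 6, *Hesx1* and *Foxa2* passed the low-count filter (about 2.18 CPM in at least 3 libraries) through the treated wild-type group alone, where they were high. They could be tested only because they were high there, so the count of 3 among 6 is a description and supports nothing about the 8 genes as a set. The same 3 genes were called by DESeq2, by limma-voom and without both libraries that stood apart. Nothing in the labels ties the replicates to separate cultures, so a p-value reflects only the spread among these libraries, and that may be technical. In bulk samples, fewer cells of a type and less RNA per cell cannot be told apart.

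**Figure D1:**
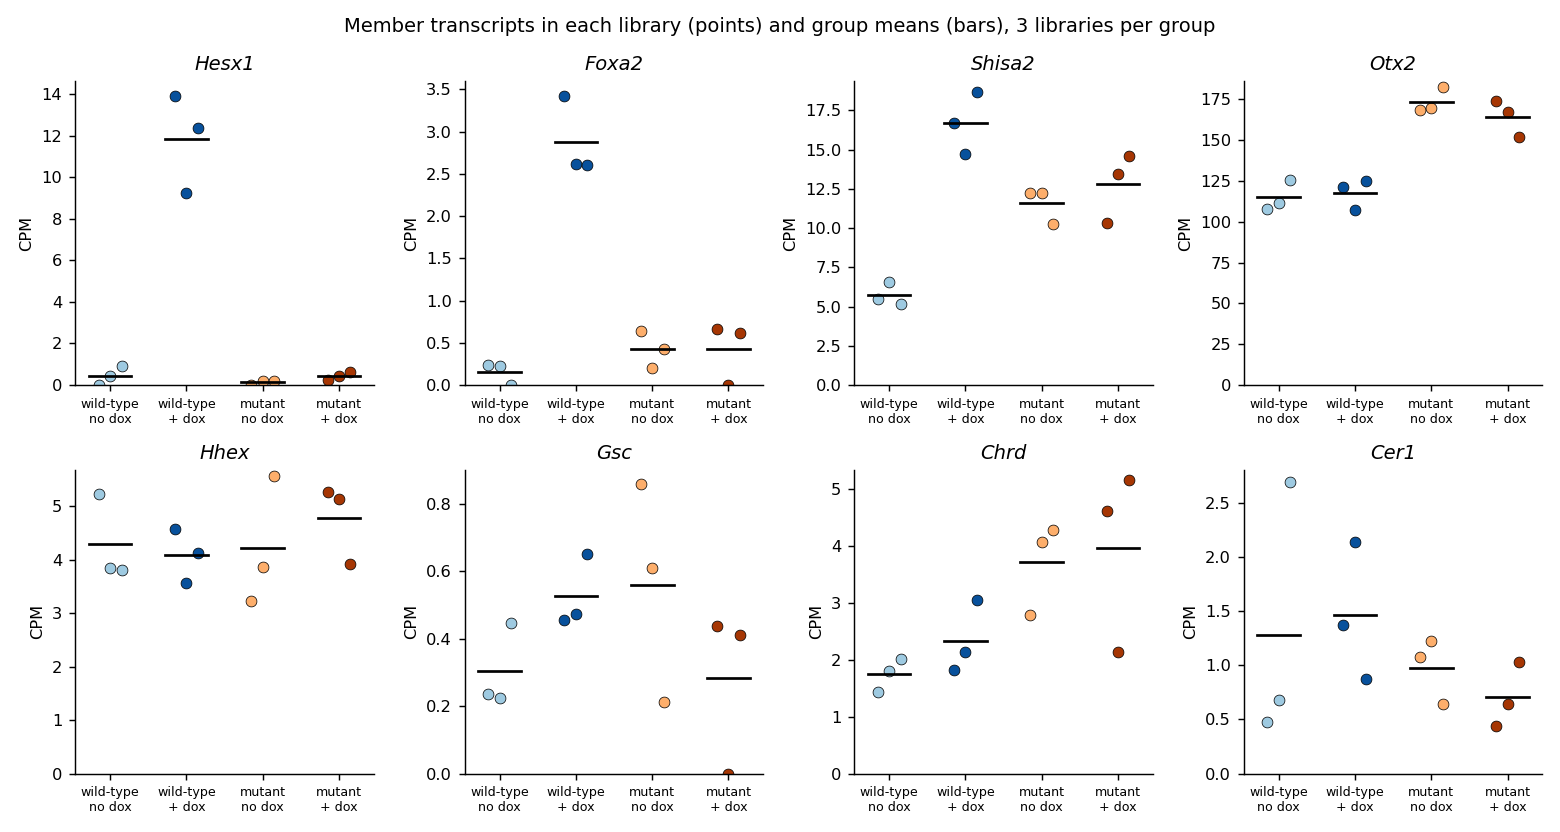
CPM (vertical axis, linear, from 0) of the 8 genes in each of the 12 libraries. Points are libraries, bars are group means. For Hesx1, Foxa2 and Shisa2 the wild-type libraries with doxycycline lie above all other libraries, at 9.26 to 13.9, 2.61 to 3.43 and 14.7 to 18.7 CPM, while Otx2 is lower in all wild-type than in all mutant libraries. For Shisa2 the nearest mutant library, treated library 3, is at 14.6 CPM.

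The windows directly before the transcription starts of the genes that rose are shown with that of *Cer1*, whose counts were too few to test, because *Cer1* held matches to homeodomain and forkhead sites while the genes that rose held none. All 8 genes matched the RefSeq promoter table (build GRCm38.p6, the assembly of mm10), with 13 starts in all. Each sequence is the 250 bases before the start, read 5′ to 3′ on the gene's strand, and for *Foxa2* the first of 3 starts is given. The RefSeq start of *Hesx1* lies inside the GENCODE gene, which begins at 26994416. Capitals mark matches on either strand to TAATTA (the core bound by LIM homeodomain proteins, equal to its own reverse complement), TAATCC (bound by OTX and GSC type homeodomains), TGTTTAC or TGTTTGC (forkhead sites).
Hesx1, chr14:27000112-27000361, plus strand: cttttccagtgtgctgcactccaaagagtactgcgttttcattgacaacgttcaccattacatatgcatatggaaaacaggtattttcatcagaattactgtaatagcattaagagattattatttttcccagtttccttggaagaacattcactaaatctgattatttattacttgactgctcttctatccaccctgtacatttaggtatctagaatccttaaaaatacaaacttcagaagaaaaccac
Foxa2, chr2:148046970-148047219, minus strand: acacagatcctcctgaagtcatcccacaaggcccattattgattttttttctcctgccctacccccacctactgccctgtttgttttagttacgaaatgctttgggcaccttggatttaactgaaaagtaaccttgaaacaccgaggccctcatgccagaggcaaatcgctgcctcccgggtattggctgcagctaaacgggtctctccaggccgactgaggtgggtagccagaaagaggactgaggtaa
Shisa2, chr14:59625031-59625280, plus strand: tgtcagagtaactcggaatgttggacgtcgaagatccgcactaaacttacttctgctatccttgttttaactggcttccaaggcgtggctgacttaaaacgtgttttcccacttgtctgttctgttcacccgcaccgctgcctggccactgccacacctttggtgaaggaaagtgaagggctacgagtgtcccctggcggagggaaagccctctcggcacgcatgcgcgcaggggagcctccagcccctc
Cer1, chr4:82885152-82885401, minus strand: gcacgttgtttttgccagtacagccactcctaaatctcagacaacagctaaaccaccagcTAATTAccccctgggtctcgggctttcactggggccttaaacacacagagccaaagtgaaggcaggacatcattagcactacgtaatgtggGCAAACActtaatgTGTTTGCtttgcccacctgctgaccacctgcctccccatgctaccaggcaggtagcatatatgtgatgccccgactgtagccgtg

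None of the 4 motifs occurred in the windows of *Hesx1*, of *Shisa2* or of any of the 3 *Foxa2* starts. The *Cer1* window held 1 TAATTA, whose first base lies 190 bases before the start, and 2 TGTTTGC matches on opposite strands, at 99 and 85 bases. *Otx2* held 1 TAATTA before its first start, and 3 TAATTA and 1 TAATCC before start 3, without overlap between the matches. The windows of *Hhex*, *Gsc* and *Chrd* held none. All 250 bases of the *Otx2* start 3 window, and of the *Gsc* window, are annotated as exon. Of 32817 windows of this length over all genes, 4.85% held TAATTA, 6.25% TAATCC, 3.16% TGTTTAC and 4.30% TGTTTGC. A match is a description of letters and not a bound site, and sites outside these 250 bases were not searched.

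**Figure D2:**
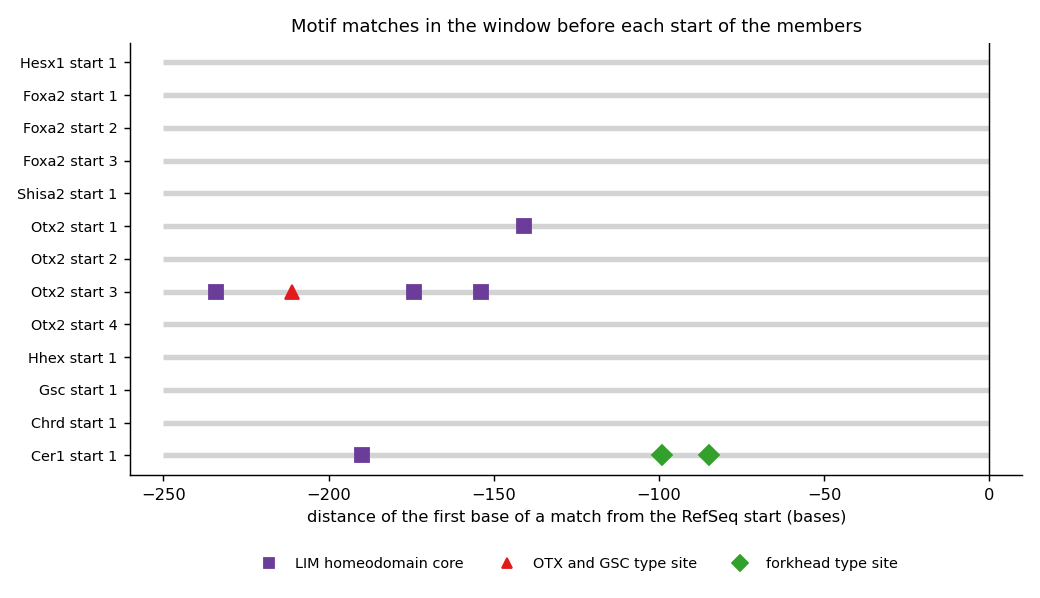
Positions of motif matches (horizontal axis, bases before the RefSeq start at 0) in the 250-base window before each of the 13 starts of the 8 genes. Matches stand only before Otx2 starts 1 and 3 and before Cer1; the windows of Hesx1, Foxa2 and Shisa2 are empty.

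*Hesx1*, a homeobox repressor needed for the forebrain and pituitary (chromosome 14, 26994416 to 27002329, plus strand, mm10), held 0, 2 and 4 counts in the untreated wild-type libraries. With doxycycline the same line held 61, 39 and 57. The mutant libraries held 0, 1 and 1 counts untreated and 1, 2 and 3 with doxycycline. The transcript was thus close to absent in 3 of the 4 groups. The wild-type libraries with doxycycline do not overlap any other library. Over the 3 libraries the wild-type ratio was 26.0 with a 95% exact counting interval of 11.7 to 71.9, and the log2 fold change reached 4.62 (SE 0.39, edgeR adjusted p = 4.13e-14). Among the untreated wild-type libraries the highest *Hesx1* count was that of library 3, which also had the high hypoxia genes. Without that library and the one with high *Rn45s* the gene was still called.

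*Foxa2*, a forkhead transcription factor that the node and the endoderm need (chromosome 2, 148042877 to 148046969, minus strand), was measured at 1, 1 and 0 counts in the untreated wild-type libraries and at 15, 11 and 12 with doxycycline. In the mutant line it stood at 3, 1 and 2 counts untreated and at 3, 0 and 3 treated. Here too the induced wild-type libraries lie above all 9 others, at a level of 2.61 to 3.43 CPM. The ratio of summed counts in the wild-type line was 18.9 (95% exact counting interval 4.87 to 161), and the fitted log2 fold change was 4.01 (SE 0.69, edgeR adjusted p = 2.82e-05). These counting intervals cover counting error only. DESeq2 gave the highest adjusted p among the alternatives, 0.0126.

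*Otx2*, a homeobox factor that forebrain and midbrain require and that the epiblast expresses (chromosome 14, 48657677 to 48673819, minus strand), had the highest level per length of the 8 in every group. Untreated wild-type libraries held 108, 111 and 126 CPM and treated ones 121, 107 and 125. The mutant libraries held 169, 170 and 182 untreated and 174, 167 and 152 with doxycycline. The treatments overlap within each line while the lines do not overlap. For doxycycline in the wild-type line the log2 fold change was 0.04 with a 95% interval of −0.10 to 0.17 (edgeR adjusted p = 0.865).

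*Hhex*, a homeobox factor of the anterior visceral and definitive endoderm (chromosome 19, 37434810 to 37440731, plus strand), lay between 3.22 and 5.56 CPM in all 12 libraries. Group means were 4.30 ± 0.812 and 4.09 ± 0.505 CPM in the wild-type line and 4.22 ± 1.21 and 4.77 ± 0.742 in the mutant line (SD, n = 3, without and with doxycycline). All 4 groups overlap. The wild-type response had a log2 fold change of −0.06 with a 95% interval of −0.63 to 0.50. At 15 to 26 counts per library a change within this interval was not detectable.

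*Gsc*, the homeobox gene goosecoid of the organizer and prechordal plate (chromosome 12, 104471209 to 104473330, minus strand), held 0 to 4 counts per library. Summed over 3 libraries there were 4 and 7 counts in the wild-type line without and with doxycycline, and 8 and 4 in the mutant line. The wild-type ratio was 1.74 with a 95% counting interval of 0.442 to 8.09. The interval spans both directions, and no test was made.

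The secreted antagonists were rare as well. *Chrd*, chordin (chromosome 16, 20733127 to 20742384, plus strand), held 6, 8 and 9 counts in the untreated wild-type libraries and 8, 9 and 14 in the treated ones. In the mutant line it held 13, 20 and 20 untreated and 21, 10 and 25 treated. The treatments overlap in both lines. With doxycycline its log2 change in the wild-type line came to 0.41 (SE 0.41, edgeR adjusted p = 0.714). The exons of *Chrd* share 239 bases with those of *Thpo* on the opposite strand, and the sources used here do not say whether counting used strand, so reads of that stretch cannot be told apart. The exons of *Otx2* share 154 bases with the antisense RNA *Otx2os1*, which held 0 to 2 counts per library, and 168 with the predicted gene *Gm49154* on the same strand.

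*Cer1*, cerberus (chromosome 4, 82881751 to 82885148, minus strand), held 2, 3 and 12 counts in the untreated wild-type libraries and 6, 9 and 4 in the treated ones. The value of 12 belongs to the library with the high hypoxia genes, whose part in it was not tested. The mutant libraries held 5, 6 and 3 and then 2, 3 and 5 counts. All groups overlap. The ratio of summed counts in the wild-type line was 1.11 (95% counting interval 0.546 to 2.27).

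*Shisa2* (chromosome 14, 59625308 to 59631660, plus strand) also rose, from a level that was already measurable. The untreated wild-type libraries were at 5.47, 6.56 and 5.16 CPM and the treated ones at 16.7, 14.7 and 18.7. Mutant libraries lay at 12.2, 12.2 and 10.3 untreated and at 10.3, 13.5 and 14.6 with doxycycline. In CPM *Shisa2* in the wild-type line thus went from below every mutant library to above every mutant library. The margin above was small, 14.73 CPM in treated wild-type library 2 (the one with high *Rn45s*) against 14.63 in treated mutant library 3. In raw counts these libraries held 62 and 71, and treated mutant library 2 held 63, so that separation came from library size. On the log2 scale it rose by 1.54 (SE 0.19, 95% interval 1.17 to 1.92, edgeR adjusted p = 6.04e-09), a rise of 2.91-fold.

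**Figure D3:**
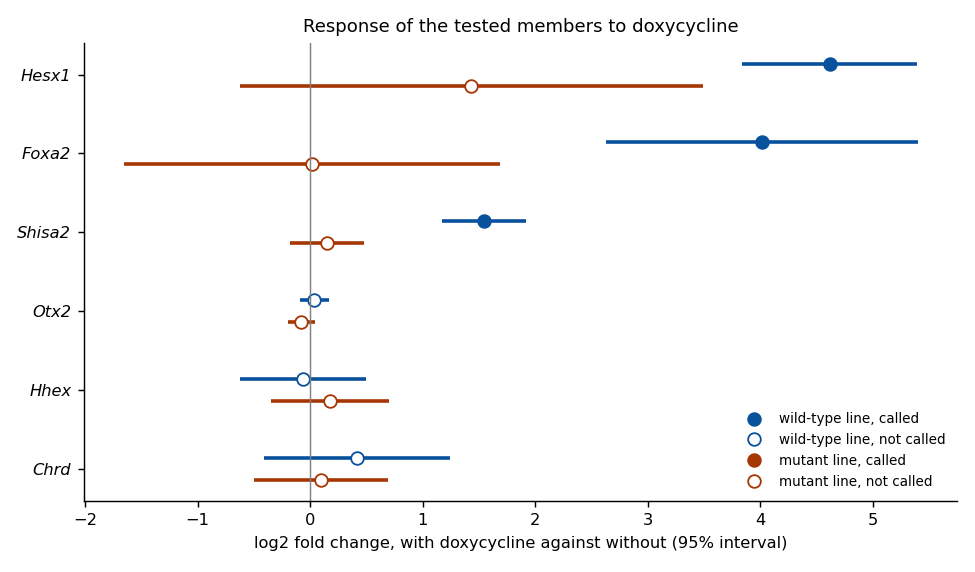
Log2 fold change with doxycycline (horizontal axis) of the 6 tested genes in the wild-type and the mutant line, with 95% intervals from the edgeR fit that are not adjusted for the number of genes; filled points were called, open points were not. Hesx1, Foxa2 and Shisa2 were called in the wild-type line at 4.62, 4.01 and 1.54, and no gene was called in the mutant line.

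In the mutant line edgeR called 0 of the 6 tested genes, and 0 had an unadjusted p under 0.05. DESeq2 and limma-voom also called 0, and 0.0162% of all genes tested were called in this comparison. *Shisa2* had a log2 fold change of 0.15 (95% interval −0.18 to 0.47). *Foxa2* had a ratio of 1.01 (95% counting interval 0.270 to 3.78). For *Hesx1*, with 2 and 6 counts over 3 libraries, the ratio was 3.03 (95% counting interval 0.542 to 30.7). In CPM the libraries of the 2 mutant groups did not overlap for *Hesx1*, 1 of the 6 genes, as for 5.30% of all genes tested with the treated ones higher. The raw counts (0, 1 and 1 against 1, 2 and 3) met at 1. There the separation, 0.214 against 0.219 CPM, came from library size alone.

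Whether the lines differed in their response was tested directly as the wild-type minus the mutant log2 fold change. *Shisa2*, 1 of the 6 genes, was called, at 1.40 (SE 0.25, 95% interval 0.89 to 1.90, edgeR adjusted p = 0.000146), beside 2.49% of all genes tested that were called and 1.40% called with a larger wild-type value. It held its call under every alternative fitted (edgeR, DESeq2 or limma-voom adjusted p 1.18e-05 to 0.00283). *Foxa2* had 3.998 (SE 1.23, edgeR adjusted p = 0.0690) and *Hesx1* 3.18 (SE 1.63, edgeR adjusted p = 0.406), which did not pass, although their wild-type rises were larger. Both rest on few counts in the untreated wild-type group and in both mutant groups. limma-voom called both (adjusted p = 0.00235 and 0.00650). Since both passed the low-count filter through the treated wild-type group alone, these calls are a description. *Otx2* had 0.12, *Hhex* −0.24 and *Chrd* 0.32, none of them called.

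With doxycycline in both lines, *Hesx1* stood higher in the wild-type line, at a log2 value of 4.72 (SE 0.38, edgeR adjusted p = 1.64e-15) and *Foxa2* by 2.68 (SE 0.55, edgeR adjusted p = 5.69e-05). *Otx2* was lower there, at −0.48 (SE 0.06, edgeR adjusted p = 1.02e-08), with no overlap between the libraries. *Shisa2* was higher by 0.38 (SE 0.15, edgeR adjusted p = 0.0367). That call was lost in DESeq2 (adjusted p = 0.146) and without wild-type library 1 or 3 or mutant library 1 or 2 (edgeR adjusted p 0.0538 to 0.229). *Chrd* had −0.75 (edgeR adjusted p = 0.0647) and was called without wild-type library 3 (0.0463) or mutant library 2 (0.0115). In this comparison 4 of 6 genes were called, 3 higher and 1 lower, beside 44.4% of all genes tested (22.4% higher and 21.9% lower). *Hesx1* and *Foxa2* passed the low-count filter only through the treated wild-type group, so this count too is a description. *Lhx1* itself also differed between the treated lines, at 296 CPM in the wild-type and 248 in the mutant line. Its log2 value was 0.25 (SE 0.05, edgeR adjusted p = 6.93e-05), and 2.22 (SE 0.49, edgeR adjusted p = 0.000268) between the untreated lines. The part of this difference in those of the other genes was not tested.

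Before any doxycycline, 3 of the 6 genes were lower in the wild-type line and none was higher, beside 45.5% of all genes tested that were called and 23.0% called lower. The libraries of the lines did not overlap for these 3 genes, as for 26.2% of all genes tested that were lower. *Otx2* stood at −0.59 (log2, SE 0.06, edgeR adjusted p = 2.57e-11), *Shisa2* −1.01 (SE 0.20, edgeR adjusted p = 2.85e-05) and *Chrd* −1.07 (SE 0.37, edgeR adjusted p = 0.0139). The share of the 6 genes called is near that of all genes, of which 5611 were called between the untreated lines. *Chrd* lost this call in DESeq2 (adjusted p = 0.0626) and without wild-type library 1 or mutant library 3 (edgeR adjusted p = 0.0561 and 0.0572). The comparisons share libraries with those above, so their values are given side by side only.

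**Figure D4:**
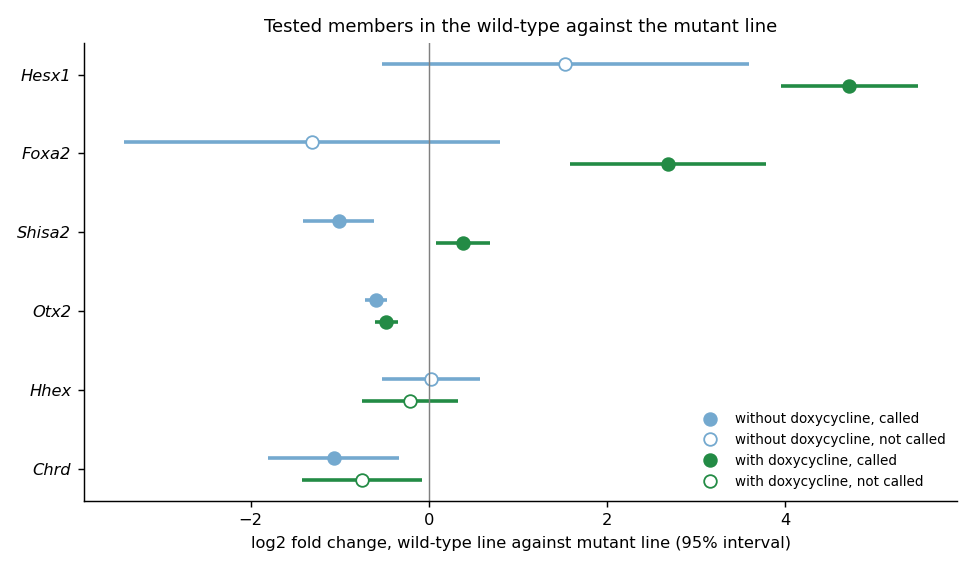
Log2 fold change of the wild-type against the mutant line (horizontal axis) for the 6 tested genes without and with doxycycline, with 95% intervals not adjusted for the number of genes; filled points were called. Shisa2 lies at −1.01 without and 0.38 with doxycycline, Otx2 below 0 in both, and Hesx1 and Foxa2 were called only with doxycycline.

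Levels of different genes were compared as CPM per kb of merged exons. In the untreated wild-type line *Otx2* was at 27.2 ± 2.21, followed by *Shisa2* at 1.56 ± 0.200 and *Hhex* at 0.850 ± 0.161 (SD, n = 3). *Cer1*, *Hesx1*, *Chrd* and *Gsc* came next, each overlapping its neighbour in that order, and *Foxa2* was lowest at 0.0653 ± 0.0566. With doxycycline the order in the wild-type line became *Otx2* (27.9 ± 2.21), *Hesx1* (9.51 ± 1.91), *Shisa2* (4.55 ± 0.541) and *Foxa2* (1.22 ± 0.199). The libraries of these 4 genes did not overlap from one to the next. *Hesx1* thus moved from the fifth to the second place and *Foxa2* from the last to the fourth. *Foxa2* overlapped *Cer1*, and *Cer1* overlapped *Hhex*. *Hhex* lay above *Gsc* without overlap, and *Gsc* overlapped *Chrd*. In both mutant groups *Otx2*, *Shisa2* and *Hhex* led in this order, and from *Hhex* down all neighbours overlapped.

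**Figure D5:**
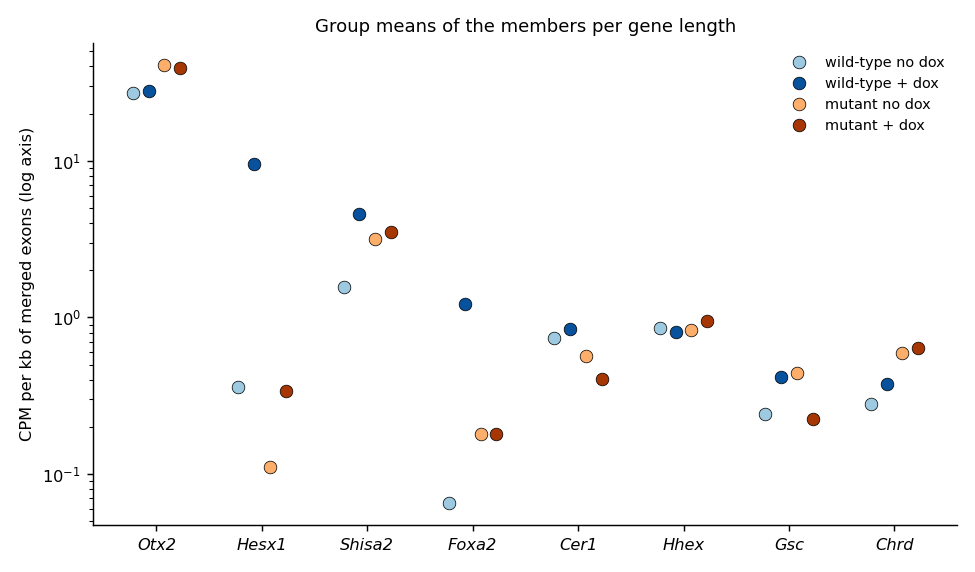
Group means in CPM per kb of merged exons (vertical axis, logarithmic) of the 8 genes, ordered by their level in the wild-type line with doxycycline; each point is the mean of 3 libraries and no error is drawn. Otx2 is highest in all 4 groups (27.2 to 41.1), and Hesx1 spans the widest range, from 0.111 to 9.51.

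Other genes of head induction were read from 4 lists. Over all genes tested, 5.32% were called in the wild-type response and 2.76% called higher, and the median log2 fold change was 0.00. Of 13 further transcription factors of the organizer and mesendoderm 5 could be tested and 2 rose in the wild-type line. They were *Lhx1*, the gene that the transgene carries, and *Eomes*, a T-box factor needed for anterior mesendoderm. *Eomes* went from 9.38 ± 2.21 to 28.9 ± 5.34 CPM (SD, n = 3). The median of the 5 was 0.19 on the log2 scale. Brachyury (*T*), a marker of the primitive streak, was not testable, since the wild-type line held 7 counts untreated and 4 treated, with 0.567 as their ratio (95% counting interval 0.122 to 2.23). *Mixl1*, *Mesp1* and *Noto* were also among the 8 of this list with too few counts.

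A list of 18 signals, antagonists and genes that modulate them held 12 that could be tested, of which 3 rose, 1 fell and 8 were not called (median log2 fold change 0.20). Only *Sfrp1* among the 3 that rose encodes a secreted antagonist. *Cyp26a1*, the enzyme that degrades retinoic acid, went from 0.994 ± 0.568 to 9.40 ± 0.784 CPM, and like *Hesx1* it passed the filter through the treated wild-type group alone. *Gpc4*, a proteoglycan of the cell surface, rose by 1.16 on the log2 scale (SE 0.14), and *Sfrp1*, a secreted WNT antagonist, by 0.77 (SE 0.10). *Lefty1*, a NODAL inhibitor, fell from 60.3 ± 4.53 to 45.1 ± 2.46 CPM. The other 6 (*Dkk1*, *Frzb*, *Sfrp5*, *Nog*, *Shh* and *Bmp7*) fell under the filter.

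Of 16 anterior neural genes 5 could be tested and 3 rose (median log2 fold change 0.68). *Pax6*, a regulator of eye and forebrain, went from 3.97 ± 0.113 to 9.93 ± 0.256 CPM. *Zic2*, which encodes a zinc finger protein needed in the forebrain, rose by 0.34 on the log2 scale (SE 0.06) and *Irx3*, an Iroquois homeobox gene, by 1.66 (SE 0.33). Of 18 relatives of the 8 genes, among them *Foxa3*, *Chrdl1* and other *Shisa* genes, 8 could be tested and edgeR called 0, with 2 at an unadjusted p under 0.05. DESeq2 and limma-voom called 0 of the 8 as well. The 2 were *Chrdl1* (log2 1.22, edgeR adjusted p = 0.0752) and *Shisa6* (0.63, edgeR adjusted p = 0.139). Their treated wild-type libraries lay above the untreated ones, as for 9.84% of all genes tested. Against the mutant line they stood at −1.44 and −0.68 untreated, both called by edgeR, and at −0.01 and −0.00055 with doxycycline, not called. *Foxa1* and *Otx1* fell under the filter. In the mutant line 1 gene of the 4 lists was called by edgeR, *Lhx1*.

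Several of the 8 genes also mark endoderm, so its markers are given beside them. The 21 genes of primitive, visceral and anterior visceral endoderm summed to 264 to 284 CPM in the untreated wild-type libraries and to 315 to 338 with doxycycline, against 358 to 381 in the mutant libraries. Of the 9 that could be tested, 3 rose in the wild-type line (*Lamb1*, *Sparc* and *Lama1*, which encode proteins of the extracellular matrix), and 6 were not called, *Gata4* among them (log2 fold change −0.89, edgeR adjusted p = 0.529). Without both libraries that stood apart, *Sparc* and *Lama1* were not called (edgeR adjusted p = 0.0689 and 0.103). *Ttr* and *Apoa2* were at 0 in the untreated wild-type group. The 11 definitive endoderm genes in the table summed to 399 to 475 CPM without and 401 to 436 with doxycycline in the wild-type line, against 883 to 978 CPM in the mutant libraries. Most of this sum was *Trh*, with group means of 319 and 298 CPM in the wild-type line and 736 and 681 in the mutant line. In the wild-type response edgeR, DESeq2 and limma-voom called 0 of the 5 tested, with 0 at an unadjusted p under 0.05. Neural ectoderm markers summed to 56.5 to 62.9 CPM without and 59.8 to 64.8 CPM with doxycycline in the wild-type line, against 191 to 216 CPM in the mutant libraries. Most of this sum was *Nes*, with group means of 49.0 and 45.1 CPM in the wild-type line and 188 and 186 in the mutant line. *Pax6*, also on this list, had means of 3.97 and 9.93 CPM in the wild-type line and 6.60 and 6.36 in the mutant line. Among the 12 pluripotency markers, *Fgf5* and *Zfp42* rose in the wild-type line (log2 fold changes 0.88 and 0.32). *Pou3f1*, *Nanog* and *Pou5f1* fell (−0.99, −0.48 and −0.21), and 7 were not called. The part of such cells or of a shift in pluripotent state in the rises of *Hesx1*, *Foxa2* and *Shisa2* was not tested. Nor was their part in the differences of *Otx2*, *Shisa2* and *Chrd* between the lines.

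Genes whose log2 CPM followed the 6 tested genes most closely over the 12 libraries were read as a description, since all points share the same lines and groups. For *Hesx1* they were *Ifitm2* (Pearson's r = 0.96), *Akap2* (0.96) and *Greb1l* (0.96), and for *Foxa2* *Sec24b* (0.97), *Eras* (0.95) and *Fbrsl1* (0.94). *Shisa2* was followed by *Emb* (0.96), *Dapk1* (0.94) and *Pax6* (0.94). These 9 genes had their highest group mean in the wild-type line with doxycycline, for instance *Eras*, a RAS-like gene of embryonic stem cells, at 90.1 CPM against 31.3 to 35.2 in the other groups. *Emb*, embigin, shared with *Shisa2* an untreated wild-type level (245 CPM) under both mutant groups (394 and 396) and a treated one (504) above them. *Otx2* went with *Gpi1* (0.99), *Ddah2* (0.98) and *Ccnl1* (0.98), which were higher in both mutant groups. For *Chrd* the genes were *AU019823* (0.93) and *Zfp341* (0.91), and for *Hhex* *Atp5e* (0.88), *Tm2d3* (0.87) and *Ribc1* (0.79).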

How the data were processed

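RNA was measured in 12 libraries of embryoid bodies, 3 per group, grouped by sample title. The authors deposited raw counts of reads per gene symbol. Per the submitters' processing notes, Trimmomatic 0.33, TopHat2 2.1.1, limma and the mm10 genome were used. For the counting tool, annotation and strand setting: not given in the sources used here. As deposited, 27 symbols read as dates (0.150% of counts); they stayed in the fit.

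Counts were analysed with edgeR 4.0.16 in R 4.3.3 (TMM scaling, filterByExpr with a minimum count of 10 and total of 15, robust quasi-likelihood fit of 1 mean per group over all 12 libraries), Benjamini-Hochberg adjusted over the 12322 genes tested in each of 5 comparisons. SE was taken as |log2 fold change| over the root of the F statistic, and is uncertain for groups with few counts. The 95% intervals use that SE and the t distribution of the fit. Ratios of summed counts carry exact conditional Poisson intervals. The procedure was tested on simulated data. Replicate pairs differed by more than sampling noise (chi-square over its degrees of freedom at least 1.11), and none was merged. By this measure untreated mutant library 3 differed from libraries 1 and 2 of its group by 2.11 and 1.99, while those 2 differed by 1.11. That library was left out only on its own.

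Positions and merged exons came from GENCODE M21 and promoter windows from RefSeq, matched by symbol. Named genes were the 8 members, *Lhx1*, up to 4 called genes per list, and for each tested member the 3 genes with the highest correlation, predicted genes left out; for *Chrd*, 1 of these is not reported here. *T*, the marker genes and genes named as under the filter stand outside that rule. The members and lists were chosen with earlier results of these data known. Alternatives were upper-quartile scaling, DESeq2 1.42.0, limma-voom (limma 3.58.1), no filter, only the libraries compared, the replicate block, each library left out, both libraries that stood apart left out, and the longest transcript for lengths.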

Additional observations from a re-analysis of the deposited data

Results flagged for a closer look

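The wild-type and mutant responses to doxycycline differed by the interaction test of edgeR in 12 of the member, list and marker genes. Over all genes tested, 2.49% were called. The members and lists were chosen with earlier results of these data known, so the count of 12 is a description. The genes named for their correlation with a member were not read here. *Shisa2* was the 1 gene among the 8 head organizer factors, with a wild-type minus mutant log2 difference of 1.40 (SE 0.25, edgeR adjusted p = 0.000146); it was higher in 3 of 3 treated wild-type libraries than in any untreated one, while the mutant groups overlapped. *Eomes* had a difference of 1.58 (SE 0.21, edgeR adjusted p = 4.08e-07), *Gpc4* 1.38 (SE 0.17, edgeR adjusted p = 5.31e-08) and *Sfrp1* 0.83 (SE 0.15, edgeR adjusted p = 0.000129). Among the marker genes, *Fgf5* had 0.91 (SE 0.08, edgeR adjusted p = 2.77e-12), *Pou3f1* −1.02 (SE 0.09, edgeR adjusted p = 3.00e-12), *Lamb1* 0.43 (SE 0.10, edgeR adjusted p = 0.00403) and *Pou5f1* −0.26 (SE 0.06, edgeR adjusted p = 0.00473), and none of these 4 lost its call under an alternative. *Pax6* had 1.36 (SE 0.31, edgeR adjusted p = 0.00460), with DESeq2 adjusted p = 0.0669. *Lefty1* had −0.45 (SE 0.12, edgeR adjusted p = 0.0150), lost in DESeq2 (adjusted p = 0.147) and without library 2 of any 1 group (edgeR adjusted p 0.0532 to 0.0837). *Zic2* had 0.26 (SE 0.08, edgeR adjusted p = 0.0473), lost under 14 of 18 alternatives. *Lhx1* had −1.97 (SE 0.49, edgeR adjusted p = 0.0212), a difference that rests on untreated counts of 27 and 6 over 3 libraries and was lost in DESeq2 (adjusted p = 0.111), in limma-voom (0.0838), without untreated wild-type library 1 (edgeR adjusted p = 0.281) and without any 1 untreated mutant library (0.0626 to 0.0908).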

How the results depend on the processing

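Of 559 values of the tested members under the alternatives, 533 kept their direction and their side of the threshold, 8 lost a call, 4 gained one and 14 changed sign, all 14 of them values that were not called. The 3 calls of the wild-type response held under every alternative run. DESeq2 called 380 genes in the wild-type response (655 by edgeR) and 153 in the difference of the responses (307 by edgeR). limma-voom called 3 members there in place of 1. Fitted on its own libraries, the mutant response gave 5 calls, 2 higher and 3 lower. The cause was not tested. limma-voom gave *Foxa2* −0.35 in the mutant response. Leaving out 1 library each gave −0.39 to 0.57 for *Foxa2* and −0.15 to 0.39 for *Chrd* in the mutant response, −0.0054 to 0.11 for *Otx2* and −0.15 to 0.10 for *Hhex* in the wild-type response, and −0.14 to 0.27 for *Hhex* between the untreated lines. With the longest transcript as length the treated wild-type levels were 45.5 for *Otx2*, 5.36 for *Shisa2*, 1.05 for *Hhex* and 0.530 for *Chrd*, by construction of a shorter length. Over all genes same-numbered replicates showed little shared deviation (correlations −0.0615 to 0.0794 over all pairs), which cannot exclude a pairing. In both wild-type groups library 3 had the highest *Bnip3*. It was at 229 CPM untreated, against 58.5 and 63.3, and at 107 CPM with doxycycline, against 52.1 and 65.8. The replicate block gave 618 calls in the wild-type response, 2 in the mutant response, 286 in the difference, and 5502 and 5354 between the lines without and with doxycycline, with 3, 0, 1, 3 and 4 members among them. At 0 to 4 counts per library *Gsc* allows no statement on its direction.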
